A study of Homo sapiens with 6 samples.

Results

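The genes described here are the 47 mRNAs of translation initiation and elongation factors that were listed by symbol: 7 elongation genes (EEF), the 13 subunits of initiation factor EIF3, and 27 other initiation genes. All 47 were found among the 60611 genes of the count table, and all 47 passed the filter on low counts that left 17847 genes for testing. They were measured in EndoC-BH5, a line of human pancreatic beta cells that the labels call WT (wild type) and trace to endocrine pancreas. Total RNA was sequenced from 3 vehicle libraries and from 3 libraries of cells given interferon gamma with interleukin 1b, which are inflammatory cytokines. Neither the dose nor the length of the exposure is given in the sources used here. The design describes 3 batches in each arm but not whether these were separate cultures, so the p-values measure only the spread between these libraries, which may be technical. All samples come from 1 cell line, so the results describe that line.

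Translation of an mRNA begins when EIF2 carries the initiator tRNA to the small ribosomal subunit, EIF3 docks that subunit with the other factors and the mRNA, and the cap-binding complex EIF4F unwinds the mRNA leader. EIF1 and EIF1A keep the scanning ribosome from starting at wrong codons, and EIF5 triggers GTP hydrolysis by EIF2 when the start codon is found. EIF5B completes subunit joining, and the EEF proteins then bring in aminoacyl-tRNA and move the ribosome along. Beta cells depend on this machinery for the bulk synthesis of proinsulin, and translation control through EIF2 phosphorylation is known to matter for their survival. Many mRNAs of ribosomal proteins and translation factors belong to the TOP (terminal oligopyrimidine) class, which begins with a C at the cap followed by an unbroken run of pyrimidines and whose translation is controlled through the kinase complex mTORC1 and the RNA-binding protein LARP1.

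The bases around the annotated transcription start are shown for 13 members because most members with a pyrimidine start fell, and the lines include an exception on each side (EIF2S3 and EEF1G). Each line gives 20 bases before and 10 bases from the start, on the strand of the gene, from the RefSeq annotation of GRCh38.p14. Capitals mark the unbroken run of C and T that begins at the annotated first base, and a line with no capitals starts on another base. The start actually used in these cells was not measured.
EEF1A1 (chr6:73521023-73521052, minus strand): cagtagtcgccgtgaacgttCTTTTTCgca
EEF2 (chr19:3985454-3985483, minus strand): tgagtgttgacgtcagcgttCTCTTCCgcc
EEF1B2 (chr2:206159875-206159904, plus strand): attttccggtctcttcgggtCCTTTTTCCT
EIF3D (chr22:36529157-36529186, minus strand): ccgctgcgcgcgcatgtttcCTCTTTTCCT
EIF3F (chr11:7987317-7987346, plus strand): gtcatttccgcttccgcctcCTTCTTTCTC
EIF3M (chr11:32583811-32583840, plus strand): gcgtcgcgcggcccagttccCTTTTCCggt
EIF4B (chr12:53006436-53006465, plus strand): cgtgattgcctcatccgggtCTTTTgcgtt
EIF4A2 (chr3:186783557-186783586, plus strand): gggtggttgggcgccgctgtCTTTTCagtc
EIF2S3 (chrX:24054936-24054965, plus strand): cagccggggtgatttccttcCTCTTTTggc
EIF4A1 (chr17:7572805-7572834, plus strand): tcgataggcgggcactccgcCCTagtttct
EIF1 (chr17:41688865-41688894, plus strand): aacacaggcaccgcccctctgccccagtca
EIF2S1 (chr14:67360308-67360337, plus strand): cgcatgcgaggaggttccgcatgcgcggtg
EEF1G (chr11:62573882-62573911, minus strand): ccttctctcccgggcggcttactttgcggc
In the lines from EEF1A1 to EIF2S3 the start is a C followed by at least 4 further bases that are each C or T, the pattern searched on the gene's own strand. EIF4A1 begins with a shorter run, and EIF1, EIF2S1 and EEF1G begin with a purine.

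Levels are given as CPM, a count expressed relative to a library size that was adjusted by TMM, which corrects for composition. The 3 values of an arm are always given in the order of replicates 1, 2 and 3. Each change is on the log2 scale, cytokine divided by vehicle, with the standard error (SE) of the fit, and it is called where the adjusted p of edgeR's quasi-likelihood test over all genes tested is under 0.05. Library totals ran from 5871481 counts in vehicle replicate 1 to 16175364 in cytokine replicate 1. The smallest estimated count of any member in any library was 143 (EIF2B3), so each member rested on more than 100 counts in every library. The 254 genes raised at least 8-fold, picked by that rise, took 0.208% to 0.213% of counts in vehicle and 5.27% to 5.29% with cytokines. The median change of all tested genes was -0.019 after TMM and -0.22 with library size alone. The part of the 254 genes in that difference was not tested. Scaling mattered, so values that do not depend on it are given as ratios within a library. All 10 beta-cell markers examined were above 1 CPM in every library, but 3 were called higher and 7 lower with cytokines, among them IAPP (1.04), SLC30A8 (-1.11) and MAFA (-1.89). Of the acinar markers PRSS1 and CELA3A were at 0 throughout and CPA1 was between 4.64 and 5.85 CPM in all 6 libraries, and PTPRC, CD3E, PECAM1, VWF, COL1A1 and COL3A1, which mark immune, endothelial and stromal cells, had group means under 1 CPM. Other islet markers were present: the alpha-cell hormone GCG went from 44.5 to 25.7 CPM (-0.79, adjusted p = 1.2e-11) and the alpha-cell factor IRX2 from 21.9 to 33.5 CPM (0.62, 1.5e-07). SST, a delta-cell hormone, averaged 555 CPM in vehicle and 568 with cytokines, the ductal keratin KRT19 averaged 161 and 135, and the macrophage marker CD68 5.14 and 21.4. The part of these markers in the results was not tested.

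Of the 47 factor mRNAs, 16 were called higher and 17 lower with cytokines, against 28.3% and 28.8% of all tested genes (57.1% in either direction), and 14 did not pass. Under TMM scaling the counts differed between the kinds of factor. Elongation genes counted 0 higher and 5 lower of 7, with a median change of -0.37. EIF3 subunits counted 1 higher and 8 lower of 13, with a median of -0.17. The other initiation factors counted 15 higher and 4 lower of 27, with a median of 0.13 that became -0.074 with library size alone. These 27 include EIF5A, which acts in elongation and termination despite its name. With library size alone they counted 5 higher and 11 lower, the elongation genes 0 and 7, and the EIF3 subunits 0 and 12. The groups also differ in the pyrimidine start described above, and the part of each was not tested. With library size alone 5 members were called higher and 30 lower, beside 16.7% and 49.2% of all genes. The 2 arms did not overlap in 35 of the 47, where 61.1% of all tested genes showed no overlap. Changes were small: 4 members (EIF3L, EIF3E, EIF4B and EIF5A) moved by 1.5-fold or more, a share below the 22.5% of all tested genes that were called and moved as far. When edgeR's glmTreat asked for a change beyond 1.5-fold, EIF3L (adjusted p = 1.5e-07) and EIF3E (0.033) passed as lower and EIF5A (0.0025) as higher, against 5.32% and 7.82% of all genes.

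**Figure D1:**
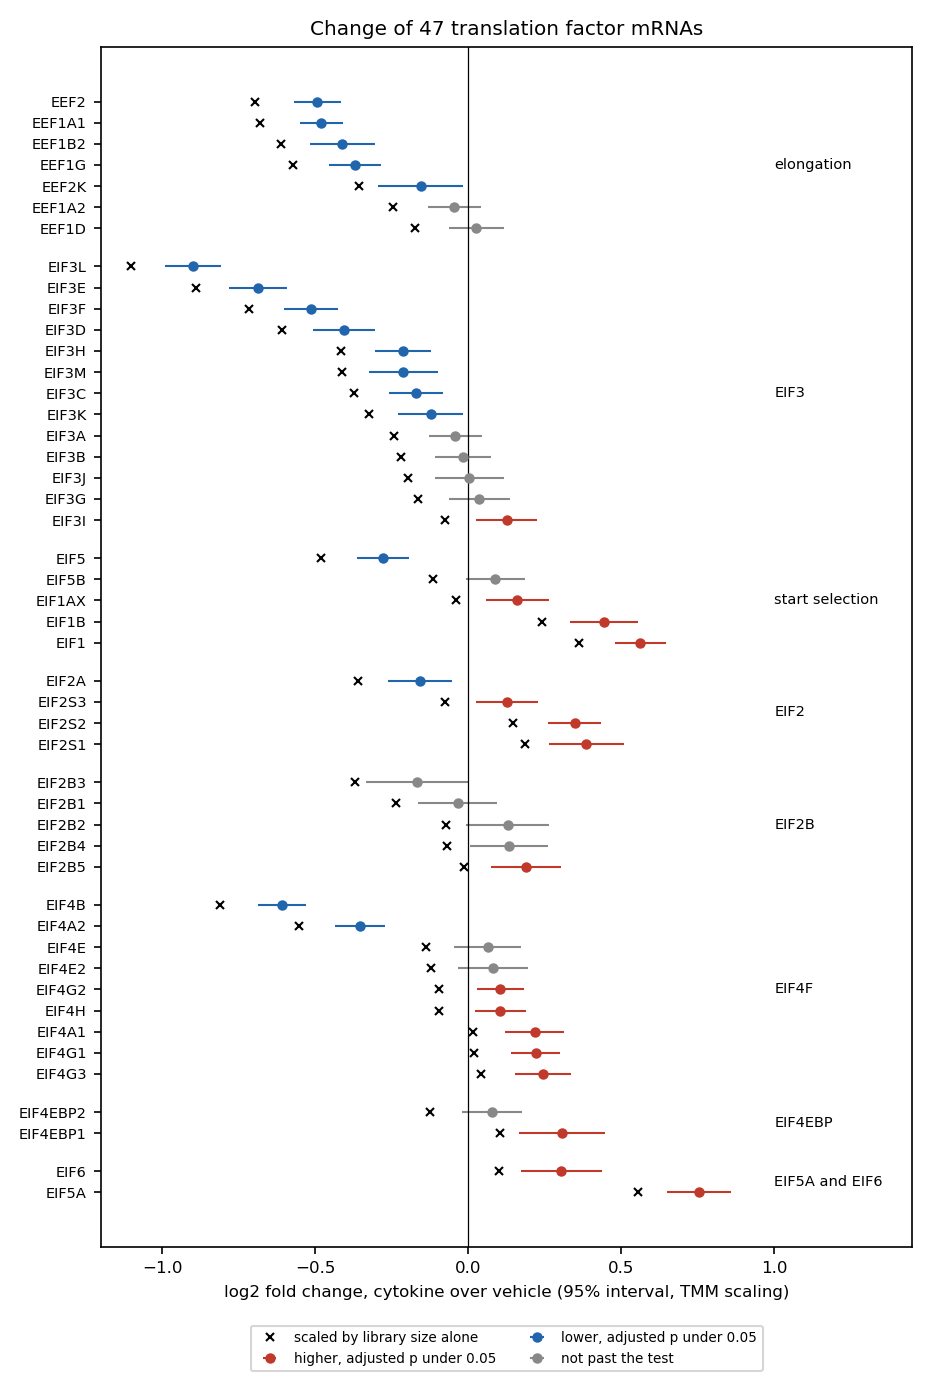
Log2 fold change of the 47 mRNAs with its 95% interval, grouped by role, with the change under library-size scaling as a cross. Elongation and EIF3 genes lie mostly left of 0 (medians -0.37 and -0.17) and the other factors mostly right of it (median 0.13), but with library-size scaling the crosses move left and the last median becomes -0.074.

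The contrast between the classes can be written inside each library, where scaling plays no part. It uses the same counts and members and is not separate support. The mean log2 CPM of the 20 EEF and EIF3 genes exceeded that of the 27 other initiation genes by 0.93, 0.94 and 0.93 in the vehicle libraries and by 0.57, 0.54 and 0.56 in the cytokine libraries. These means are not divided by length, so the change between arms is what they show. The gap narrowed by 0.38, against an SD of 0.008 to 0.013 within an arm, and the arms lay far apart. That of the EEF genes narrowed from 2.08 ± 0.008 to 1.68 ± 0.011, and the EIF3 subunits moved from 0.32 ± 0.014 to -0.049 ± 0.017 (SD, n = 3). No p is given for these scores, since the members were chosen with results of these data known. The 47 mRNAs together held 1.86% to 1.94% of all counts in the vehicle libraries and 1.39% to 1.42% in the cytokine libraries. Most of that drop lay in EEF1A1, from 0.581% to 0.363%, and EEF2, from 0.346% to 0.214%, while the other 45 went from 0.973% to 0.825%. Unlike the gap, these shares of all counts depend on scaling and are not corrected for composition. With library size alone the median change of all tested genes was -0.22, so part of the drop is shared with genes in general. In these bulk libraries less RNA per cell and fewer cells of a kind cannot be told apart.

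Of the 7 elongation mRNAs, EEF1A1, EEF2, EEF1B2 and EEF1G fell by 0.37 to 0.49 on the log2 scale, EEF2K by less, and EEF1A2 and EEF1D did not pass. EEF1A1, which delivers aminoacyl-tRNA to the ribosome, is the most abundant member, at 914 CPM per kilobase of exon in vehicle. It stood at 5426, 5566 and 5311 CPM in vehicle and at 3914, 3864 and 3913 CPM with cytokines, 0.717 times the vehicle level (log2 change -0.48, SE 0.034, adjusted p = 5.9e-13). Every cytokine library lay below every vehicle library. EEF2, the translocase, went from 3228, 3380.0 and 3095 CPM to 2318, 2239.9 and 2331 CPM (log2 change -0.49, SE 0.038, adjusted p = 2.2e-12), again without overlap. EEF1B2 and EEF1G, subunits of the complex that recharges EEF1A with GTP, fell by 0.41 (adjusted p = 8.9e-08) and 0.37 (8.3e-09) on the log2 scale. EEF1D, another subunit of that complex, did not pass, with 172 ± 4.51 CPM in vehicle and 175 ± 5.18 CPM with cytokines (SD, n = 3; adjusted p = 0.65, 95% interval of the log2 change -0.064 to 0.12).

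EEF1A2, the paralog of EEF1A1 known mainly from muscle and neurons, was measured at 1094, 1066 and 977 CPM in vehicle and 994, 991 and 1050.0 CPM with cytokines. The arms overlapped and the change did not pass (log2 change -0.046, SE 0.042, adjusted p = 0.36). The log2 ratio of EEF1A1 to EEF1A2 within a library was 2.31, 2.38 and 2.44 in vehicle and 1.98, 1.96 and 1.898 with cytokines, a difference of -0.43 without overlap. EEF2K, the kinase that inhibits EEF2, had the lowest level per kilobase of all 47, 4.29 CPM per kilobase in vehicle. Its values were 34.8, 32.5 and 35.9 CPM in vehicle and 30.4, 32.9 and 29.8 CPM with cytokines, where cytokine replicate 2 lay inside the vehicle range (log2 change -0.16, SE 0.067, adjusted p = 0.049). The EEF2K call was lost when vehicle replicate 1 (adjusted p = 0.091), vehicle replicate 3 (0.28), cytokine replicate 1 (0.17) or cytokine replicate 3 (0.17) was left out. Reads of EEF1A1 could be shared with its 45 processed copies, which held 5.82% as many counts, and the sum of both changed by -0.48.

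Within EIF3, the scaffold that recruits the small ribosomal subunit, the 2 most lowered mRNAs of all 47 were found. EIF3L, on chr22:37848868-37889407 of GRCh38, fell from 183, 187 and 179.8 CPM to 95.4, 99.2 and 99.9 CPM, 0.536 times the vehicle level (log2 change -0.90, SE 0.045, adjusted p = 1.1e-16). EIF3E, a subunit that anchors EIF3D to the complex, fell from 156, 168 and 158 CPM to 101, 99.8 and 98.9 CPM (log2 change -0.69, SE 0.046, adjusted p = 1.1e-13). In both genes the arms were far apart compared with the spread inside an arm. EIF3F and EIF3H, the subunits with MPN folds, changed by -0.52 (adjusted p = 2.2e-11) and -0.21 (0.00014). EIF3D, which can bind the cap of particular mRNAs, changed by -0.41 (3.8e-08) and EIF3M by -0.21 (0.0017). EIF3C changed by -0.17 (0.0012), but its near-identical copy EIF3CL held 90.3% as many counts, so its level is uncertain, and the 2 genes summed changed by -0.18 (0.00047).

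The 8 subunits of the structural octamer (EIF3A, C, E, F, H, K, L and M) counted 7 lower and 0 higher under TMM scaling, with a median change of -0.21. Of all tested genes 28.8% were lower and 28.3% higher. EIF3A, the scaffold subunit on which the complex is built, was the octamer member that did not pass (-0.043, adjusted p = 0.41). Of the other 5 subunits, EIF3D was lower, EIF3I was higher and EIF3B, EIF3G and EIF3J did not pass (median 0.003). With library size alone all 8 octamer subunits and 4 of the other 5 were lower, and 0 were higher. The shares of all genes were then 49.2% lower and 16.7% higher. Inside a library the mean log2 CPM of the octamer exceeded that of the other 5 by 0.83, 0.90 and 0.91 in vehicle and 0.57, 0.61 and 0.57 with cytokines. EIF3I, a propeller-shaped subunit bound to EIF3B, went from 80.7, 79.8 and 78.1 CPM to 88.4, 84.9 and 86.2 CPM (log2 change 0.13, SE 0.049, adjusted p = 0.028), which turned to -0.076 with library size alone. That call was lost without vehicle replicate 3 (adjusted p = 0.12) or cytokine replicate 1 (0.084), and the call of EIF3K (-0.12, 0.046) was lost without any library other than vehicle replicate 3 (0.061 to 0.22).

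**Figure D2:**
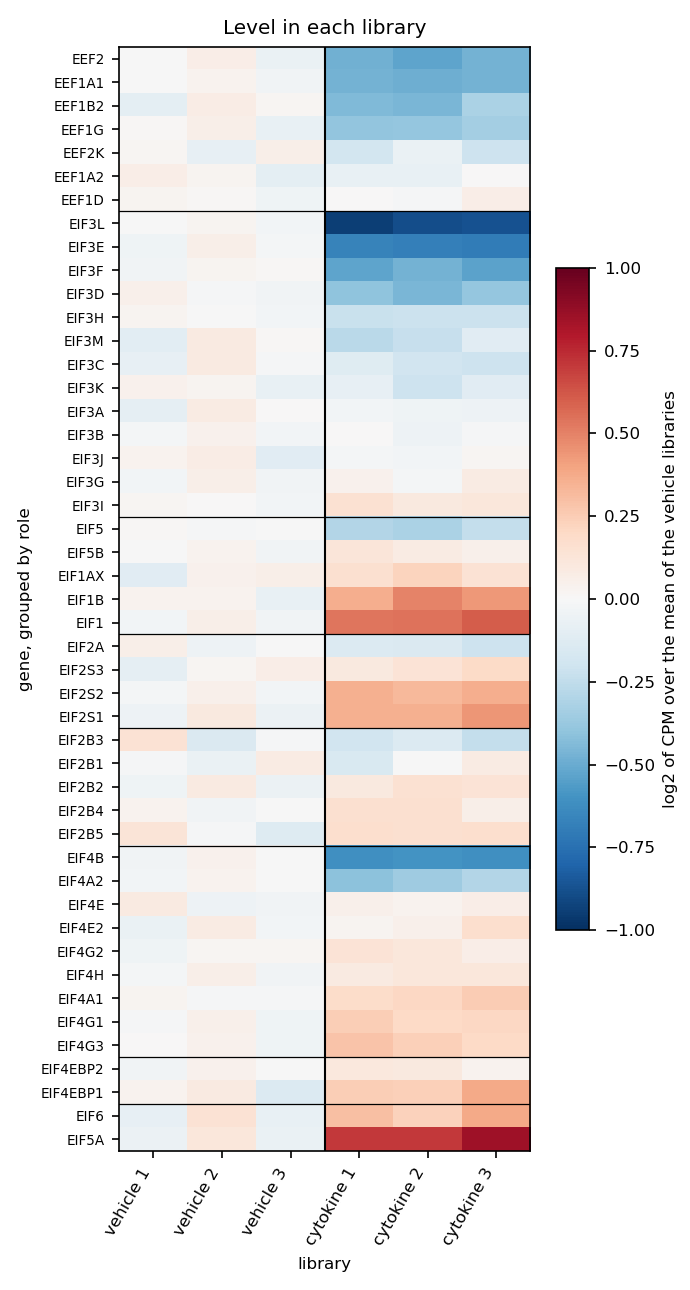
Log2 of CPM in each of the 6 libraries relative to the mean of the vehicle libraries, with genes in rows grouped by role and libraries in columns. Blue blocks in the 3 cytokine columns mark EEF2, EEF1A1, EIF3L, EIF3E and EIF4B, red blocks mark EIF1 and EIF5A, and the 3 libraries of an arm have similar shades.

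Among the factors of start-codon selection, EIF1 and its paralog EIF1B rose together. EIF1, which holds the scanning ribosome in its open form, went from 403, 429 and 401 CPM in vehicle to 595, 601 and 625 CPM with cytokines, 1.48 times the vehicle level (log2 change 0.56, SE 0.040, adjusted p = 6.6e-13). EIF1B went from 60.2, 60.3 and 55.7 CPM to 75.7, 82.8 and 79.5 CPM (log2 change 0.44, SE 0.055, adjusted p = 4.8e-08). Neither gene's arms overlapped. EIF5, which triggers GTP hydrolysis by EIF2 when the start codon is found, moved the other way, from 253, 248 and 249.5 CPM to 204, 201 and 212 CPM (log2 change -0.28, SE 0.042, adjusted p = 1.2e-06). EIF1AX changed by 0.16 (adjusted p = 0.0079) and became -0.042 with library size alone. EIF5B, the GTPase of subunit joining, did not pass, at 104 ± 2.62 CPM in vehicle and 110.4 ± 2.74 CPM with cytokines (SD, n = 3; adjusted p = 0.11), although it passed without cytokine replicate 3 (0.042).

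EIF2S1, EIF2S2 and EIF2S3, the subunits of the initiator tRNA carrier EIF2, were all called higher under TMM scaling, EIF2S3 with a sign that turned under library size alone. EIF2S1, the alpha subunit that stress kinases phosphorylate, was at 41.0, 45.4 and 40.7 CPM in vehicle and 54.2, 54.2 and 57.6 CPM with cytokines (log2 change 0.39, SE 0.060, adjusted p = 2.8e-06). The beta subunit EIF2S2 was at 168, 176 and 167 CPM and 218, 213 and 219 CPM (log2 change 0.35, SE 0.043, adjusted p = 4.7e-08). For both, the lowest cytokine library was above the highest vehicle library. The gamma subunit EIF2S3 showed a smaller difference (0.13, adjusted p = 0.029), which was -0.075 with library size alone and lost its call without vehicle replicate 1 (0.11) or cytokine replicate 3 (0.071). EIF2A, a separate protein that can bring initiator tRNA to the ribosome without EIF2, was lower, at 78.8, 73.1 and 75.5 CPM and 68.8, 68.4 and 65.5 CPM (log2 change -0.16, SE 0.051, adjusted p = 0.0094), and without cytokine replicate 3 it missed the threshold, at 0.05 after rounding.

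EIF2B recharges EIF2 with GTP, and its catalytic subunit EIF2B5 was the EIF2B mRNA that was called. It was at 80.2, 73.0 and 67.0 CPM in vehicle and 82.7, 81.9 and 82.3 CPM with cytokines (log2 change 0.19, SE 0.055, adjusted p = 0.0048), a difference of -0.014 with library size alone. The vehicle libraries were widely spread while the cytokine libraries were close together, and without vehicle replicate 3 the call was lost (adjusted p = 0.13). EIF2B1, EIF2B2, EIF2B3 and EIF2B4 did not pass, with log2 changes from -0.17 to 0.13. EIF2B2 passed without vehicle replicate 2 (0.034), as did EIF2B3 (0.042), and EIF2B4 passed without cytokine replicate 3 (0.028).

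In the cap-binding complex EIF4F and its helpers, the helicase paralogs EIF4A1 and EIF4A2 moved in opposite directions under TMM scaling, and EIF4B fell. EIF4B, which stimulates the EIF4A helicase, fell from 630.0, 664 and 643 CPM to 421, 427 and 422 CPM (log2 change -0.61, SE 0.039, adjusted p = 3.3e-14). EIF4A2, at 101 CPM per kilobase of exon in vehicle the higher EIF4A paralog, against 18.4 for EIF4A1, fell from 607, 634 and 616 CPM to 465, 483 and 506 CPM (log2 change -0.35, SE 0.040, adjusted p = 1.1e-08). EIF4A1 went the other way, from 99.6, 97.1 and 96.9 CPM to 111, 113 and 117 CPM (log2 change 0.22, SE 0.047, adjusted p = 0.00022), a change that was 0.015 and not past the test with library size alone. The log2 ratio of EIF4A1 to EIF4A2 inside a library, which no scaling alters, was -2.61, -2.71 and -2.67 in vehicle and -2.06, -2.10 and -2.12 with cytokines. The ratio moved by 0.57. EIF4A1 shares its locus on the same strand with a protein-coding readthrough gene, SENP3-EIF4A1, so reads of the 2 may be split between them. The same limit holds for EEF1G and EIF6, which each overlap another protein-coding gene on their own strand. EIF3L also overlaps a further annotated gene on its strand.

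EIF4G1 and EIF4G3, the scaffolds that join the cap-binding protein to EIF3, rose by like amounts under TMM scaling. EIF4G1 was at 471, 492 and 459.8 CPM in vehicle and 564, 543 and 548 CPM with cytokines (log2 change 0.22, SE 0.040, adjusted p = 2.3e-05). EIF4G3 was at 138, 141 and 133 CPM and 168, 162 and 157 CPM (log2 change 0.24, SE 0.045, adjusted p = 3.5e-05). Neither passed with library size alone, where the changes were 0.018 and 0.042. EIF4G2, a scaffold that lacks the EIF4E site, and EIF4H, a further helicase cofactor, were called at 0.10 (adjusted p = 0.018) and 0.10 (0.03), but both were called lower, at -0.10 each, with library size alone. The EIF4G2 call was lost without vehicle replicate 1 (0.068), cytokine replicate 1 (0.065) or cytokine replicate 2 (0.054), and the EIF4H call without vehicle replicate 1 (0.068), vehicle replicate 3 (0.16) or cytokine replicate 2 (0.068).

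The cap-binding protein EIF4E itself was at 66.1, 59.9 and 60.7 CPM in vehicle and 64.4, 63.8 and 65.1 CPM with cytokines (log2 change 0.063, SE 0.054, adjusted p = 0.33). EIF4E2, a cap-binding relative that acts mainly as a repressor, was at 57.7, 63.9 and 59.3 CPM and 61.6, 62.6 and 67.7 CPM (log2 change 0.081, SE 0.056, adjusted p = 0.23). The arms of both genes overlapped, and the 95% intervals of the log2 change were -0.047 to 0.17 for EIF4E and -0.035 to 0.20 for EIF4E2. EIF4EBP1, a protein that blocks EIF4E until mTORC1 phosphorylates it, rose from 33.8, 35.2 and 30.1 CPM to 39.1, 38.9 and 42.9 CPM under TMM scaling (log2 change 0.31, SE 0.069, adjusted p = 0.0004). With library size alone that change was 0.10 and did not pass (0.19). EIF4EBP2, its relative with the same role, was at 98.2, 104 and 100.5 CPM and 109, 108 and 103 CPM (log2 change 0.077, SE 0.047, adjusted p = 0.17), with overlapping arms.

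EIF5A had the largest rise of all 47. This factor, which carries the modified amino acid hypusine, helps ribosomes past difficult peptide bonds and acts in elongation and termination despite its name. The gene lies on chr17:7306999-7312463 of GRCh38. Its mRNA went from 130.0, 146 and 129 CPM in vehicle to 221, 221 and 243 CPM with cytokines, 1.69 times the vehicle level (log2 change 0.75, SE 0.051, adjusted p = 1.8e-13). EIF6, which keeps the large ribosomal subunit from joining too early, went from 40.5, 47.4 and 40.6 CPM to 52.7, 50.1 and 55.7 CPM (log2 change 0.30, SE 0.065, adjusted p = 0.00021). The arms were apart in both, and with library size alone EIF5A was still called (0.55) while EIF6 was not (0.10).

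Ratios between paralogs within a library were compared for 6 pairs by an exact two-sided permutation test over the 6 libraries, in which the smallest possible p is 0.1. In 4 pairs the arms did not overlap and p was 0.1 (0.15 adjusted over the 6). These were EEF1A1 to EEF1A2, EIF4A1 to EIF4A2, EIF1 to EIF1B and EIF4EBP1 to EIF4EBP2. In the last 2 pairs the gap between the nearest libraries of the 2 arms was smaller than the SD within an arm. For EIF1 to EIF1B the highest vehicle ratio was 2.848 and the lowest cytokine ratio 2.857, and for EIF4EBP1 to EIF4EBP2 these were -1.535 and -1.474. The mean log2 ratio of EIF1 to EIF1B went from 2.81 ± 0.058 to 2.94 ± 0.068 and that of EIF4EBP1 to EIF4EBP2 from -1.61 ± 0.11 to -1.40 ± 0.12 (SD, n = 3 libraries). EIF4G1 to EIF4G3 differed by -0.021 (exact p = 0.4, adjusted 0.48) and EIF4E to EIF4E2 by -0.034 (exact p = 0.8, adjusted 0.8), differences within the spread of the libraries. A design of this size cannot reach 0.05, so these ratios stand as measured values.

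**Figure D3:**
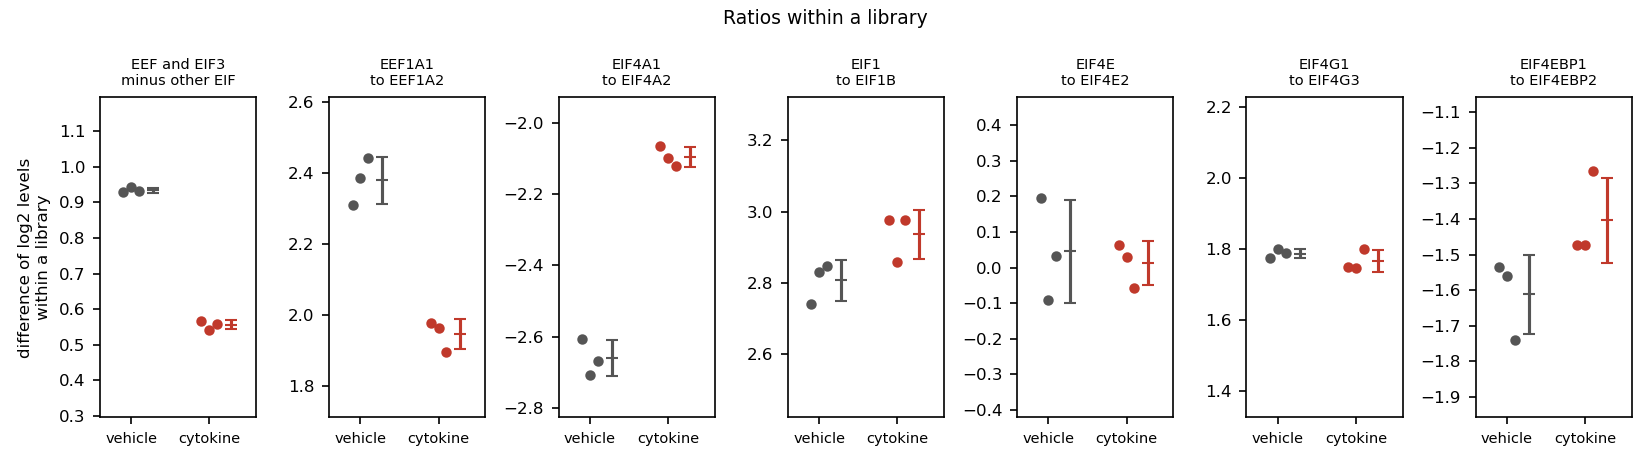
Differences of log2 levels within a library, as points for the 3 vehicle (grey) and 3 cytokine (red) libraries with mean and SD beside them, for the class contrast and the 6 paralog pairs; each panel has its own axis range. The class gap drops from about 0.94 to 0.56, the EEF1A1 to EEF1A2 ratio from 2.38 to 1.95, and EIF4A1 to EIF4A2 rises from -2.66 to -2.09, while EIF4E to EIF4E2 overlaps.

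Of the 17 members called lower, 10 have the pyrimidine start described above, 4 lack it, and 3 (EIF3L, EIF3E and EIF3H, with the 2 largest falls among them) had no start entry and are unclassified. A start with C followed by at least 4 bases each C or T was present in 4.07% of 35116 RefSeq starts. Counted by gene, where any start of a gene suffices, it was present in 845 of 11939 tested genes with a RefSeq start and in 11 of 38 members. EIF3A, EIF3L, EEF1D, EEF1A2, EIF4EBP1, EIF3E, EIF3H, EIF2S2 and EIF3G had no entry there. Of the 11 (EEF1A1, EEF1B2, EEF2, EIF2A, EIF2S3, EIF3D, EIF3F, EIF3K, EIF3M, EIF4A2 and EIF4B), 10 were called lower and EIF2S3 higher, with a median change of -0.41. Leaving out 1 library at a time gave 8 to 10 lower calls. Of the 27 members without it, 4 were called lower (EEF1G, EEF2K, EIF3C and EIF5) and 13 higher under TMM scaling, with a median of 0.10. With library size alone, only EIF1, EIF1B, EIF2S1 and EIF5A of these 27 were still called higher. EIF2B1, EIF2B3, EIF3B, EIF3J, EIF4E, EIF4EBP2, EIF4G2, EIF4H and EIF5B were then called lower as well. The members of the EIF4A pair fall on either side under TMM scaling, EIF4A2 with the run and lower and EIF4A1 without it and higher. EEF1B2 has another annotated start without the run, and the table does not say which start is in use in these cells.

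Inside a library the mean log2 CPM of the members with the run exceeded that of the 27 members with a RefSeq start but no run by 1.38, 1.40 and 1.41 in vehicle and by 0.95, 0.94 and 0.97 with cytokines. Across all 11939 tested genes with a RefSeq start, 29.9% were called lower and 30.8% higher. Of the 845 genes with the run, 40.0% were lower and 26.3% higher, and of the 11094 without it 29.1% and 31.2%. With cytosolic ribosomal proteins and the members themselves left out, the 787 remaining genes with the run were lower in 36.6% and had a median change of -0.061. The match is a description of the annotation and says nothing of which factor acts on these mRNAs.

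**Figure D4:**
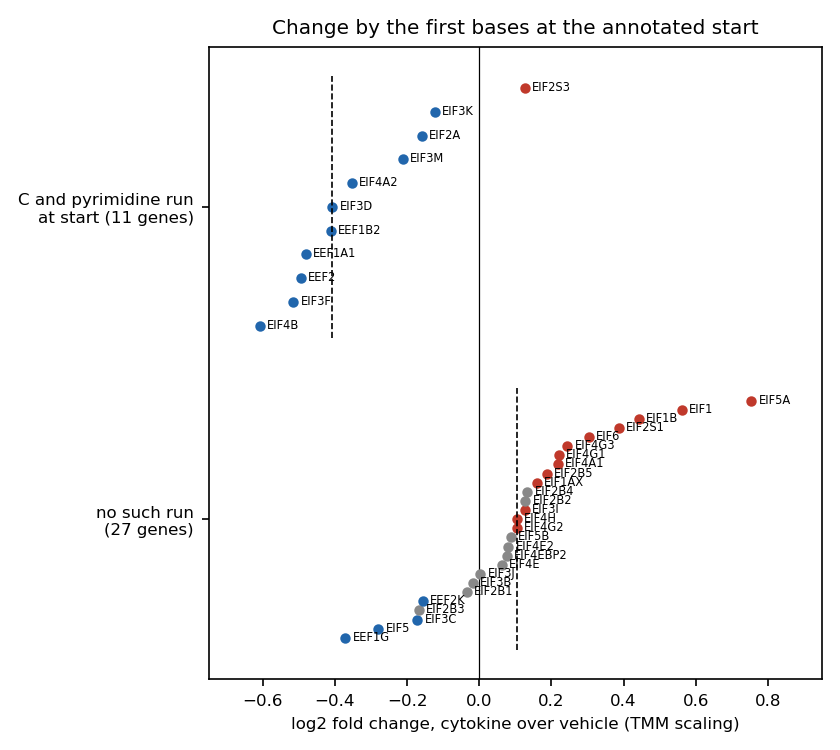
Log2 fold change after TMM scaling of the 38 members with a RefSeq start, split by whether the start has the C and pyrimidine run; points are genes (blue called lower, red called higher, grey not past) and dashed lines are medians. All members with the run but EIF2S3 lie left of 0 (median -0.41) and members without it centre on 0.10. With library size alone EIF2S3 is at -0.075, and the members without the run also lie further left.

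The other genes of the machinery gave the following counts, to be read beside the 28.3% of all tested genes called higher and 28.8% called lower. With library size alone those shares were 16.7% and 49.2%. Of 81 cytosolic ribosomal protein mRNAs, the best known TOP mRNAs, 65 were lower, 1 was higher and 15 did not pass, with a median change of -0.33, beside -0.37 for the EEF genes. Genes of the integrated stress response, which acts through EIF2S1, counted 7 higher and 3 lower of 12 (median 0.34). With library size alone the counts were 7 and 5 (median 0.13). The higher ones included EIF2AK2, the kinase activated by double-stranded RNA (1.42, adjusted p = 3.3e-19), and PPP1R15A, which guides dephosphorylation of EIF2S1 (1.72, 1.9e-22). The falling side held IMPACT (-0.29, 6.8e-05), an inhibitor of the kinase EIF2AK4, and EIF2AK4 itself (-0.18, 0.025). Of 20 genes of mTORC1 and TOP mRNA control, 7 were higher and 7 lower (median -0.045), or 2 and 13 with library size alone. LARP4, which binds poly(A) tails, rose by 0.80 (2.6e-13), and LARP1, the binder of TOP starts, by 0.39 (2.8e-09). PDCD4, an inhibitor of EIF4A, went from 219.7 ± 3.85 CPM to 121 ± 6.74 CPM (SD, n = 3; log2 change -0.86, SE 0.046, adjusted p = 5.6e-16), and the mTOR partner MLST8 changed by -0.35 (9.8e-06). Of 20 poly(A)-binding and further initiation genes, 8 were higher and 4 lower (median 0.028), or 1 and 11 with library size alone. EIF4E3 (0.42, 1.7e-05), another EIF4E relative, and PAIP1 (0.27, 4.5e-05), which stimulates poly(A)-binding protein and did not pass with library size alone, led the rises. PAIP2B (-0.35, 0.0049), an inhibitor of poly(A)-binding protein, and EIF2D (-0.30, 6.7e-05) led the falls.

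The authors' deposited table of fold changes and FDR values gave 12 members higher and 15 lower at 0.05, against 26.7% and 25.6% of the 17847 genes tested here. Its call was the same as the one here for 41 of the 47 and opposite for 0. In its values EIF3L was at -0.89, EEF1A1 at -0.47 and EIF5A at 0.77 on the log2 scale.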

How the data were processed

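The authors deposited 1 table of 60611 genes with estimated counts per gene and library that need not be whole and were not normalised, per the values and the file headers. The share of genes above 0 lying within 0.005 of a whole number was 67.3% to 73.5% per library. STAR 2.7.5a, HTSeq 0.12.4 and the build GRCh38 are named without roles, per the submitters' processing notes. Neither annotation release nor counting strand is given in the sources used here, so reads of overlapping genes on opposite strands, present for 32 members, cannot be separated with certainty. Columns carrying NT were taken as vehicle, since the remaining ones carry the cytokine name and the numbers match the titles. Each log2 fold change and each p-value with its FDR that the authors deposited was used only for the counts and values credited to their table.

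Estimated counts were rounded (the plan named counts), filtered with filterByExpr, scaled with TMM and tested with edgeR 4.0.16 (R 4.3.3; robust quasi-likelihood fit on group alone, Benjamini-Hochberg over 17847 genes at 0.05). SE was taken as log2 change over root F, and replicates varied by a common coefficient of 3.47%, which edgeR calls biological but which may be technical here. Libraries of an arm differed by more than sampling noise (chi-square per gene 1.37 to 2.46), and each was counted. That excess cannot tell separate cultures from technical repeats. Alternatives were other scalings, DESeq2 1.42.0, other filters, the replicate number as a block, leaving out each library, a threshold of 0.01, glmTreat and summed gene copies. On simulated data for this comparison (17472 genes, 200 changed) 40%, 78%, 100% and 100% of changes of 0.25, 0.5, 1 and 2 on the log2 scale were recovered, and 10 of 169 calls were false. Exon lengths and overlaps came from GENCODE 29 and starts from RefSeq (GRCh38.p14). All members could be named; library values were given for set genes, the paralog pairs, and the 2 furthest up and 2 furthest down called members of each role. The up to 2 most changed genes in each direction were named from other lists. The members and lists were chosen with earlier results of these data known.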

Additional observations from a re-analysis of the deposited data

How the results depend on the processing

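Of the 33 called members, 19 (14 lower and 5 higher) kept direction and call under every alternative run other than the glmTreat threshold of 1.5-fold, and 14 did not. Library size alone gave 2980 higher and 8779 lower calls over all genes, 5 and 30 over the members and 5 higher among the other initiation factors, with medians of -0.57 for elongation, -0.37 for EIF3 and -0.074 for the others, the last a change of sign. Upper-quartile scaling gave 9 members higher, all 9 of them other initiation factors, and medians of -0.49, -0.29 and 0.006. DESeq2 gave 3356 genes lower and a median of 0.15 for the other factors. With glmTreat, 1395 genes were higher and 950 lower, members 1 and 2, elongation genes lower 0, EIF3 subunits lower 2, other factors higher 1, and members with the pyrimidine start lower 0. The gap between the medians of EEF plus EIF3 and of the other factors was -0.32, -0.34 without EEF2K and -0.30 with EIF5A moved to elongation, which set the elongation median to -0.26. Leaving out each library gave a gap of -0.33 to -0.31, an EIF3 median of -0.20 to -0.12, a median of the other factors of 0.12 to 0.15 and an EIF4E to EIF4E2 difference of -0.10 to 0.042. Signs turned with library size alone for EEF1D -0.18, EIF1AX -0.042, EIF2B5 -0.014, EIF2S3 -0.075, EIF3G -0.17, EIF3I -0.076, EIF3J -0.20, EIF4E -0.14, EIF4EBP2 -0.12, EIF4G2 -0.10, EIF4H -0.10, EIF5B -0.11, and with upper-quartile scaling for EIF4G2 -0.017, EIF4H -0.017; a change of sign between values that passed in neither setting was not counted. Library size alone leaves out the correction for composition; the cause of the other shifts was not tested.

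With the replicate block, 16 members were higher and 16 lower, EEF2K lost its call (adjusted p = 0.067) and the gap was -0.32. Correlations of same-numbered libraries were 0.081, 0.046 and -0.104 over 11431 genes, so the numbers were not taken to pair the samples, and not every library correlated best with its own number. In the simulation, with 200 genes changed, 40% of changes of 0.25 on the log2 scale were recovered. In these data 10199 genes were called, so that share need not hold for the members. Some members with smaller changes were called, such as EIF4G2 (0.105), and small changes of others may still be missed.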

Other observations

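Genes that end translation and free the ribosome counted 5 of 7 higher under TMM scaling and 1 lower, but with library size alone 1 was higher and 2 were lower. Over all tested genes 28.3% were higher and 28.8% lower, or 16.7% and 49.2% with library size alone. The release factor GTPase GSPT1 rose by 0.46 (adjusted p = 1.1e-09 in edgeR's quasi-likelihood test) and the recycling ATPase ABCE1 by 0.33 (3e-05; not past with library size alone), while GSPT2, the paralog of GSPT1, changed by -0.30 (0.0014).

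Of 16 genes in a list of factor modification, which also holds the factor EIF5A2, 6 were higher and 5 lower, or 3 and 8 with library size alone. The shares over all tested genes were 28.3% and 28.8%, or 16.7% and 49.2% with library size alone. EEF2KMT, a lysine methyltransferase of EEF2, went from 6.91 ± 0.807 CPM to 11.5 ± 2.43 CPM (SD, n = 3; log2 change 0.72), and EIF5A2, the paralog of EIF5A and itself no modifying enzyme, from 12.7 ± 1.28 CPM to 21.2 ± 3.80 CPM (0.70). DOHH, which completes the hypusine of EIF5A, rose by 0.38 (0.00077) under TMM scaling but was at 0.17 and not past with library size alone. DOHH was chosen after its value was seen. DPH5 (-0.62, 4.6e-07), an enzyme of the diphthamide modification of EEF2, and EEF1AKMT1 (-0.52, 0.0084), a methyltransferase of EEF1A, were lower. Among ribosomal proteins RPS12, also chosen after its value was seen, was the mRNA called higher, at 315 ± 25.1 CPM in vehicle and 411 ± 7.77 CPM with cytokines (SD, n = 3; 0.38, 3.2e-08).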
